A study of Homo sapiens with 6 samples.

Results

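The RNA of 10 genes that act on the extracellular matrix was measured in NSCLC cell lines with and without MALAT1 knockdown. The 10 genes were the 6 matrix metalloproteinases MMP1, MMP2, MMP7, MMP14, MMP15 and MMP24, the 3 tissue inhibitors TIMP1, TIMP2 and TIMP3, and PLAU, which encodes urokinase. They were chosen by gene symbol, as invasion genes for a lncRNA named after metastasis, with earlier results of these data known. All 10 of them were found among the 46427 genes of the table. Each of the human NSCLC lines H460, H1299 and A549 gave 1 control library, whose label gives the treatment as "non". Each also gave 1 library of cells transfected with siRNA against MALAT1 (si-MALAT1), so that the 6 libraries hold 2 for each line. All are established tumor lines, and no other genotype or agent is given. Negative control cells and cells given si-Control are both described in the methods. The label points to cells without transfection, but which of these was sequenced is not stated outright in the sources used here. An effect of transfection itself therefore cannot be told apart from an effect of losing MALAT1, for any gene below. With 1 library for each line and condition, no test was possible within a line, and nothing says that the libraries came from separate cultures, so p-values over the lines measure only the spread between these libraries.

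MMPs are zinc proteases that cut collagens and other matrix proteins, some of them released from the cell and others anchored in its membrane. TIMPs bind their active site and block it, and TIMP2 also helps membrane-anchored MMP14 to activate the precursor of MMP2. Urokinase bound to its receptor PLAUR turns plasminogen into plasmin, a protease that degrades fibrin and can activate precursors of MMPs. In tumors these genes are studied for their part in invasion, and many of them respond to AP-1, the transcription factor made of FOS and JUN proteins.

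The libraries held 42506818 to 68515992 reads, with the fewest in A549. MALAT1 itself had 231045 and 43858 reads in the control and si-MALAT1 library of H460, 407551 and 47935 for H1299, and 93747 and 14447 for A549, or log2 differences of -2.32, -2.96 and -2.84. The epithelial keratins KRT8 and KRT18 were read in all 6 libraries (122 to 2918 TPM), but other epithelial markers were uneven. KRT19 was at 550 and 399 TPM in H460 but at 0.26 and 0.23 TPM in H1299. KRT7 was at 0.987 and 1.51 TPM in H1299 and at 781 and 376 TPM in A549, and EPCAM was at most 8.04 TPM. The mesenchymal marker VIM was at 446 to 2120 TPM. PTPRC and CD3E of leukocytes and CDH5 of endothelium were at 0 in all 6 libraries, while CD68 of the immune list was at 9.40 to 47.3 TPM. The 6 fibroblast markers summed to 0.301 to 22.5 TPM. CDH1 was at most 0.0468 TPM in H460 and H1299 and 27.8 to 39.4 TPM in A549. CDKN2A had 0 reads in the libraries of H460 and A549 and 2938 and 2679 reads in the control and si-MALAT1 library of H1299.

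The members lay on 8 chromosomes (GRCh38 coordinates from the deposited annotation). MMP7 (Gene ID 4316, chr11:102520508-102530747) and MMP1 (Gene ID 4312, chr11:102789919-102798160) belonged to a cluster of 9 MMP genes on the minus strand of chromosome 11. MMP2 (Gene ID 4313, chr16:55478830-55506691) and MMP15 (Gene ID 4324, chr16:58025754-58046901) were on the plus strand of chromosome 16. MMP14 (Gene ID 4323, chr14:22836585-22847758), MMP24 (Gene ID 10893, chr20:35226690-35276998) and PLAU (Gene ID 5328, chr10:73909182-73917497) were on plus strands as well. TIMP1 (Gene ID 7076, chrX:47582408-47586789) lay within SYN1 and TIMP3 (Gene ID 7078, chr22:32801705-32863041) within SYN3, each on the strand opposite to its host and with 0 exonic bases in common. TIMP2 (Gene ID 7077, chr17:78852977-78925387, minus strand) overlapped CEP295NL without sharing exonic bases.

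Antisense genes shared exonic bases with 3 members, and whether the reads were counted by strand is not given in the sources used here, so that reads of the partners cannot be told apart. PLAU shared 820 of its 2772 exonic bases with C10orf55, which had 17 to 284 reads against 1801 to 23145 for PLAU. MMP1 shared 150 bases with WTAPP1, which had at most 22 reads. MMP24 shared 647 bases with MMP24OS, which had 325 to 1563 reads, more than MMP24 itself in H460 and H1299.

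Promoter windows of RefSeq (GRCh38.p14), each from 250 bases before to 50 bases after a transcript start, were given for 7 of the 10 members, MMP7, MMP14, MMP15, MMP24, TIMP1, TIMP3 and PLAU, and not for MMP1, MMP2 and TIMP2. They were searched on both strands for the AP-1 motif TGAGTCA and the GC box GGGCGG. The TATA box word TATAAA was searched on the strand of the gene only. These motifs do not overlap each other in the windows shown. The windows of MMP7, MMP14 and PLAU are given for 2 reasons. MMP7 had the smallest adjusted p of the members in the edgeR F-test between lines. MMP14 and PLAU were the members called in 2 lines after MALAT1 knockdown. Capitals mark the motifs, and each window is written 5′ to 3′ on the strand of its gene.
MMP7, chr11:102530698-102530997, minus strand: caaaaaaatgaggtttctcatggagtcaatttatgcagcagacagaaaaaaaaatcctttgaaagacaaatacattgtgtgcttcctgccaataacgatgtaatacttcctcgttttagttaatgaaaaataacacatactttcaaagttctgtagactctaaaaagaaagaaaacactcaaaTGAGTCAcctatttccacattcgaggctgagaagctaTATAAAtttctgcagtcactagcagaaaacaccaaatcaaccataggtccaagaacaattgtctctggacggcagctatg
MMP14, chr14:22836335-22836634, plus strand: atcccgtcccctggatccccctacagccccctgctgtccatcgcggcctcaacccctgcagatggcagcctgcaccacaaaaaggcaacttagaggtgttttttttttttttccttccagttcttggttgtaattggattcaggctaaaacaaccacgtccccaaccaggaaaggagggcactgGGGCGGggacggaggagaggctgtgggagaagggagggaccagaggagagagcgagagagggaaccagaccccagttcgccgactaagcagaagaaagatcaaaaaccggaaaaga
PLAU, chr10:73910882-73911181, plus strand: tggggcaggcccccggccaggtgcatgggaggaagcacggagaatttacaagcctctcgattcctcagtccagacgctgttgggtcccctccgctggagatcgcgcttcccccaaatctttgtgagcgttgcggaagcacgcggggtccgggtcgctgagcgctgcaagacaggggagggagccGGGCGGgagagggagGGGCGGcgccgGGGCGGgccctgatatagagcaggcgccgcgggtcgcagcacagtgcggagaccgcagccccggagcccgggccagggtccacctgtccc

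TGAGTCA occurred in the window of MMP7, 67 bases before the start, and in no other member window, against 4.95% of 35116 windows. MMP7 also had TATAAA 30 bases before the start, a word found in 7.33% of the windows, and a GC content of 35.7%, below the median of 58.7% over all windows. The window of MMP14 had 55% GC and 1 GGGCGG, and the PLAU window shown had 70% GC and 3 copies. GGGCGG occurred in 45% of all windows, and MMP15 and TIMP3 had 5 copies each, MMP24 had 3 and TIMP1 had 2. A further PLAU window, around a start upstream at position 73910610, held none of the 3 motifs. A match is a run of letters and says nothing on binding in these cells.

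The largest differences among the members were between the cell lines, with or without MALAT1 knockdown. In TPM, a deposited unit that is scaled for depth and for transcript length so that genes can be compared, TIMP1 had the highest mean level in H460 (209 TPM) and H1299 (208 TPM). In A549, MMP7 (54.9 TPM), TIMP1 (53.7 TPM) and PLAU (43.5 TPM) led, and neighbors in this order overlapped over the 2 libraries. MMP1 was high in H1299 and H460, MMP14 in H1299, and MMP7 and MMP24 in A549.

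**Figure D1:**
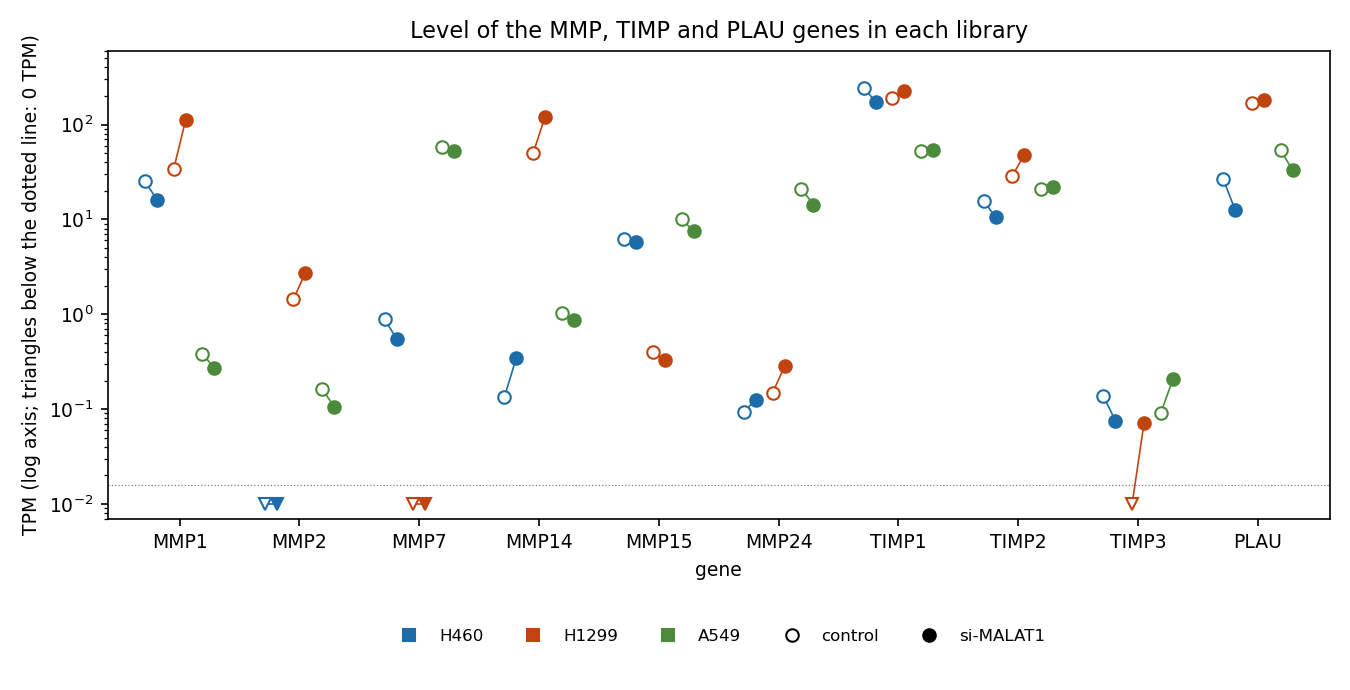
TPM of each gene (log axis) in the 6 libraries, with color for the cell line, open symbols for the control and filled symbols for si-MALAT1, each pair joined by a line. Triangles below the dotted line stand for 0 TPM, and MMP7 is at 0 in H1299 but at 57.7 and 52.2 TPM in A549.

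MMP1, the interstitial collagenase, was at 25.2 TPM in the control and 16.2 TPM in the si-MALAT1 library of H460. It was at 34.0 and 112 TPM in H1299, and at 0.382 and 0.270 TPM in A549, each in the same order. A549 was below the other lines in every library. MMP2, a gelatinase, was at 0 TPM in both H460 libraries, at 1.45 and 2.75 TPM in H1299, and at 0.162 and 0.106 TPM in A549. It was thus a low gene even in H1299, the line where it was highest. MMP7, also called matrilysin and made mostly by epithelial cells, was at 0.898 and 0.549 TPM in H460, at 0 in both H1299 libraries, and at 57.7 and 52.2 TPM in A549. Of its 3 line means summed, 98.7% came from A549.

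MMP14, the main membrane-anchored collagenase, was at 0.133 and 0.347 TPM in H460, at 49.6 and 121 TPM in H1299, and at 1.04 and 0.877 TPM in A549. H1299 held 98.6% of the summed means, and its control library alone was above the 4 libraries of the other lines. MMP15, a related membrane-anchored protease, was at 6.15 and 5.82 TPM in H460, at 0.397 and 0.329 TPM in H1299, and at 10.0 and 7.56 TPM in A549. MMP24, a membrane-anchored protease known mainly from the nervous system, was at 0.0941 and 0.126 TPM in H460, at 0.149 and 0.284 TPM in H1299, and at 21.1 and 14.3 TPM in A549. The membrane-anchored members therefore split, with MMP14 high in H1299 and the other 2 low there.

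TIMP1, a soluble inhibitor of most MMPs, was at 246 and 173 TPM in H460, at 192 and 224 TPM in H1299, and at 53.2 and 54.1 TPM in A549. The libraries of H460 and H1299 overlapped, and A549 was below both lines. TIMP2 was at 15.8 and 10.5 TPM in H460, at 28.8 and 48.1 TPM in H1299, and at 21.0 and 22.1 TPM in A549. Its highest line mean was 2.92 times its lowest, the smallest such ratio among the members read in each line. TIMP3, which stays bound to the matrix, was read at 0.0758 to 0.205 TPM in H460 and A549, and at 0 and 0.0717 TPM in H1299. PLAU was at 26.7 and 12.7 TPM in H460, at 171 and 181 TPM in H1299, and at 54.1 and 32.8 TPM in A549, and its lines did not overlap.

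The difference between the lines was tested on the read counts of the 6 libraries with edgeR's quasi-likelihood F-test, with treatment as a term and Benjamini-Hochberg adjustment over 19122 genes. Of the 10 members, 9 passed an adjusted p of 0.05, where 64.3% of all genes did, and the same 9 passed it in each of 6 fits that left out 1 library. Their adjusted p ran from 2.2e-05 for MMP7 to 0.0189 for TIMP2, and TIMP3 had 0.245. Against H460, H1299 was higher in MMP14 by 8.06 ± 0.47 (log2, SE, adjusted p = 6.4e-05), in PLAU by 2.92 ± 0.26 (adjusted p = 3.0e-04) and in TIMP2 by 1.18 ± 0.27 (adjusted p = 0.0111). It was lower in MMP15, with a log2 difference of -4.38 ± 0.20 (SE, adjusted p = 2.8e-05). MMP2 and MMP7 were called too, but a library at 0 gives no fold, and against a floor of 3 reads per library MMP2 was at least 115-fold higher in H1299 than in H460 and MMP7 at least 1141-fold higher in A549 than in H1299. In all, 4 members were called higher and 2 lower in H1299 than in H460, where 26% and 26.6% of all genes were.

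A549 was higher than H460 in 5 members (MMP2, MMP7, MMP14, MMP24 and PLAU, 18.9% of all genes) and lower in MMP1 and TIMP1 (19.3% of all genes). MMP24 differed by 7.01 ± 0.40 (log2, SE, adjusted p = 1.1e-04, edgeR), MMP7 by 5.96 ± 0.22 (adjusted p = 7.4e-05), MMP1 by -6.29 ± 0.68 (adjusted p = 0.00103) and TIMP1 by -2.20 ± 0.18 (adjusted p = 3.5e-04). MMP14 differed by 1.80 ± 0.43 (adjusted p = 0.0199) and PLAU by 0.89 ± 0.24 (adjusted p = 0.0299), and these calls were lost under several alternatives. With no treatment term the adjusted p was 0.0577 for MMP14 and 0.104 for PLAU, and with no filter on low counts it was 0.0572 for PLAU. Without the H460 or the A549 control library, MMP14 had an adjusted p of 0.0683 or 0.0548 (log2 1.44 and 1.07), and without the H460 si-MALAT1, A549 control or A549 si-MALAT1 library PLAU had 0.140, 0.215 or 0.0972 (log2 0.61, 0.77 and 1.02). Against H1299, A549 was higher in MMP7, MMP15 and MMP24 (24.4% of all genes) and lower in MMP1, MMP2, MMP14, TIMP1 and PLAU (24.5%), with a log2 difference of 6.42 ± 0.38 for MMP24 (adjusted p = 8.9e-05) and -6.26 ± 0.43 for MMP14 (adjusted p = 1.4e-04).

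Some neighbors in the order of lines missed the threshold. MMP1 differed by 1.32 ± 0.51 on the log2 scale between H1299 and H460 (SE, adjusted p = 0.0703, edgeR), and passed without the H460 control (adjusted p = 0.00605) or the H1299 control library (4.3e-04). MMP15 differed by 0.25 ± 0.17 between A549 and H460 (adjusted p = 0.293), MMP24 by 0.59 ± 0.43 between H1299 and H460 (adjusted p = 0.290), and TIMP1 by -0.35 ± 0.17 between these lines (adjusted p = 0.129). TIMP2 differed by -0.76 ± 0.26 between A549 and H1299 (adjusted p = 0.0531), which became 0.0135, 0.0131 or 0.00913 without the H460 control, the H460 si-MALAT1 or the H1299 control library. TIMP2 differed by 0.42 ± 0.26 between A549 and H460 (adjusted p = 0.248, or 0.0431 without the H460 control library). TIMP3 passed between no pair of lines, but without the H1299 si-MALAT1 library, which left H1299 with no read, H1299 differed from H460 (adjusted p = 0.0320) and from A549 (0.0353).

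Summed over the members, inhibitor RNA exceeded protease RNA by most in H460. In the control libraries the 3 TIMP genes summed to 262, 220 and 74.4 TPM and the 6 MMP genes to 32.5, 85.6 and 90.3 TPM in H460, H1299 and A549. The ratio of TIMP to MMP was 8.05 and 7.96 in the control and si-MALAT1 library of H460, 2.57 and 1.15 for H1299, and 0.823 and 1.01 for A549. It was lower after MALAT1 knockdown in H1299, close to its control in H460 and higher in A549. With the other 17 MMP genes added to the MMP sum but no further inhibitor, H460 had a ratio of 4.83 and 4.31. H1299 then had 2.11 and 1.03, and A549 had 0.790 and 0.943. TIMP1 made up 70.8% to 94.2% of the TIMP sum. MMP1 made up 77.6% of the MMP sum in the H460 control, MMP14 57.9% in the H1299 control and MMP7 63.9% in the A549 control. Of the sum over all 23 MMP genes these shares were 46.5%, 47.6% and 61.2%.

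**Figure D2:**
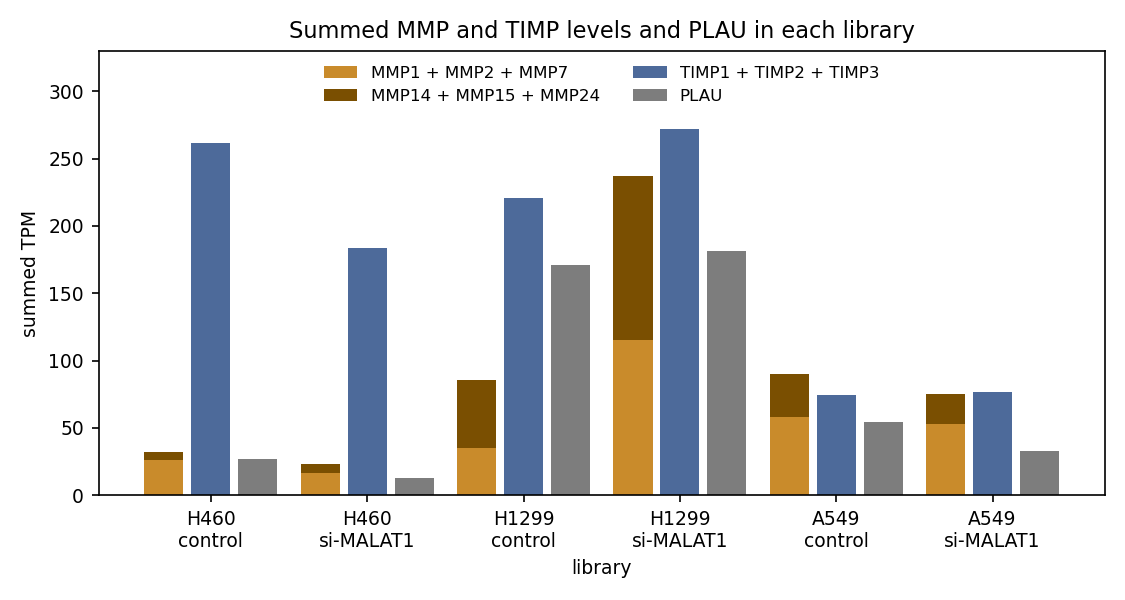
Bars give the summed TPM of the secreted MMP1, MMP2 and MMP7 with the membrane-anchored MMP14, MMP15 and MMP24 stacked on them, of the 3 TIMP genes, and of PLAU, in each library. The MMP bar of H1299 is at 85.6 TPM in the control and at 237 TPM in the si-MALAT1 library, while that of H460 is at 32.5 and 23.0 TPM.

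The clustered genes on chromosome 11 were read very unequally. In order of position they were MMP7, MMP20, MMP27, MMP8, MMP10, MMP1, MMP3, MMP12 and MMP13. MMP1 and MMP7 were highest in different lines, although both lay in the cluster, with 3869 reads of MMP1 and 0 of MMP7 in the H1299 control and 27 and 2256 in the A549 control. MMP10, the neighbor of MMP1, which encodes stromelysin-2, had 130 and 177 reads in H460 and 97 and 312 in H1299, but 0 and 28 in A549. Its highest library was the si-MALAT1 library of H1299, as for MMP1. MMP13 had 143 and 93 reads in H1299 and 0 in the other lines, MMP12 had 17 reads in the si-MALAT1 library of H1299 alone, and MMP3 and MMP27 had 0 in all 6.

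**Figure D3:**
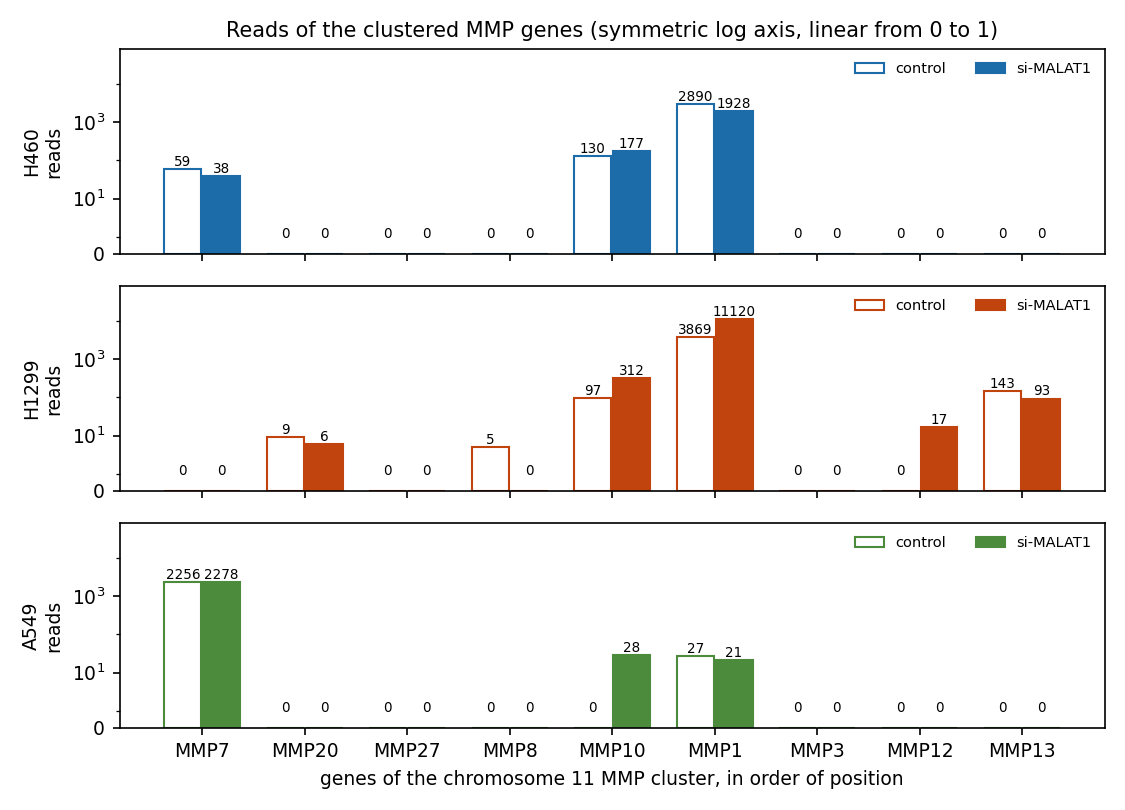
Reads of the 9 clustered MMP genes, in order of position, for each cell line, with open bars for the control, filled bars for si-MALAT1 and the count above each bar, on a symmetric log axis that starts at 0. MMP7 carries the reads of A549, and MMP1 those of H460 and H1299.

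The next question was how the members responded to MALAT1 knockdown in each line. For this, reads were scaled by relative log expression (RLE), a difference was taken as log2 of the scaled count plus 1, and a gene was called at a fold change of at least 1.5. Exact 95% Clopper-Pearson intervals are given after each difference and cover counting error only. Counts of calls refer to the 7 members that were read in all 6 libraries (not MMP2, MMP7 and TIMP3), beside 17834 genes filtered in the same way. In bulk RNA, fewer cells with a transcript and less transcript per cell cannot be told apart.

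MALAT1 knockdown went with higher MMP1 and MMP14 in H1299 and with lower PLAU in H460 and A549. In H1299, 4 of 7 members were called higher (MMP1, MMP14, MMP24 and TIMP2), where 11.7% of all genes were, and 0 were called lower (11.4%). In H460, MMP14 was called higher (9.5% of all genes) and PLAU lower (10.3%). In A549, 0 members were called higher (11.5%) and PLAU was called lower (11.4%). Calls in either direction were 2, 4 and 1 of 7 over H460, H1299 and A549, where 19.8%, 23.1% and 22.9% of all genes were called. The median difference over the 7 members was -0.36 in H460, 0.68 in H1299 and -0.39 in A549, beside 0.02, 0.02 and 0.01 over all genes. No member was called in the same direction in all 3 lines. On the log2(TPM + 1) scale 22.7% of the genes called in H460 were higher, beside 48.1% on scaled counts, and there MMP1 was called lower too (-0.61).

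**Figure D4:**
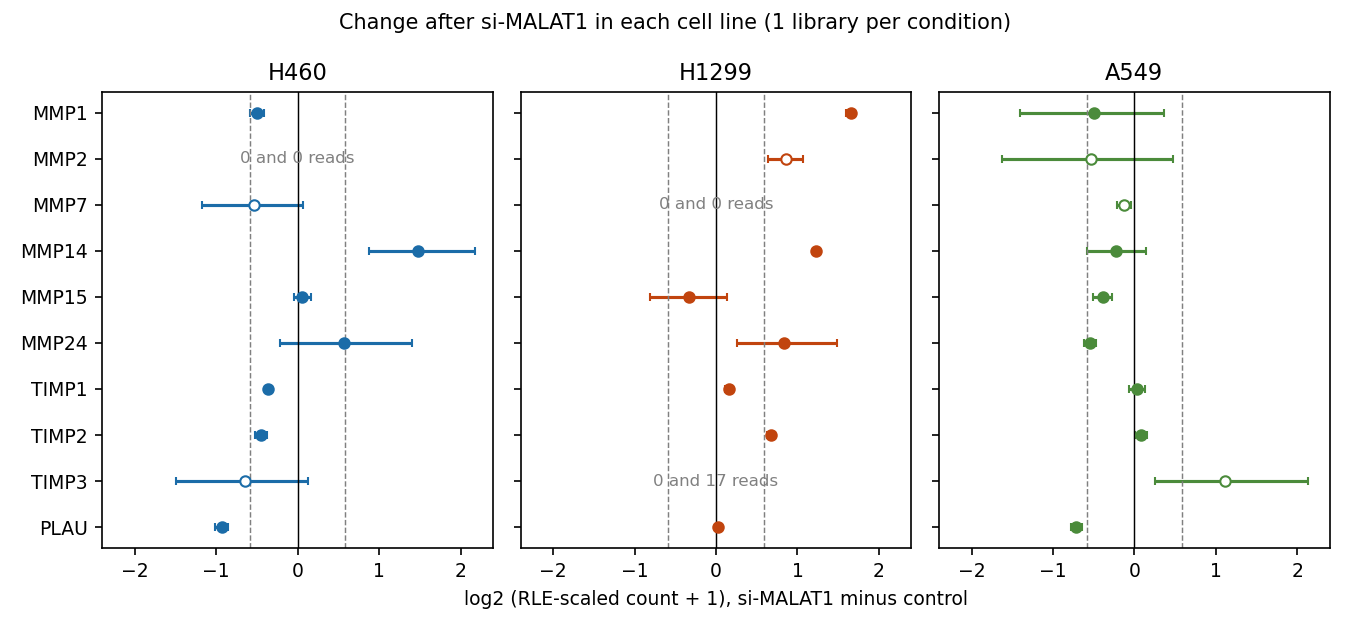
Difference in log2 scaled counts between si-MALAT1 and control (points) with the exact 95% interval of counting error (bars) in each cell line, open points for genes not read in all 6 libraries, and dashed lines at a fold change of 1.5. MMP1, MMP14, MMP24 and TIMP2 lie beyond the right dashed line in H1299, and PLAU lies beyond the left one in H460 and A549.

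MMP1 had 3869 reads in the control and 11120 in the si-MALAT1 library of H1299, a log2 difference of 1.65 (1.60 to 1.71), or 3.15-fold. In H460 it had 2890 and 1928 reads, a difference of -0.50 (-0.59 to -0.42), and in A549 27 and 21 reads, a difference of -0.49 (-1.40 to 0.37). H1299 and H460 thus moved in opposite directions with intervals that leave out 0, and A549 was too low to give a direction. MMP14 had 10592 and 22625 reads in H1299, a difference of 1.23 (1.19 to 1.26), or 2.34-fold. It had 29 and 78 reads in H460, a difference of 1.47 (0.88 to 2.18), and 134 and 127 reads in A549, a difference of -0.22 (-0.58 to 0.14). The call in H460 was made at a level of at most 0.347 TPM, so the gene stayed low in that line, and on the log2(TPM + 1) scale the difference was 0.25, which is no call.

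MMP2, which was left out of the counts because H460 had no read, had 294 and 486 reads in H1299, a difference of 0.85 (0.64 to 1.07). In A549 it had 20 and 15 reads, with an interval of -1.63 to 0.48. MMP2, MMP14 and TIMP2, which act together at the cell surface, were therefore all higher by more than 1.5-fold in the si-MALAT1 library of H1299. MMP7 had 2256 and 2278 reads in A549, where scaling for depth gave -0.13 (-0.22 to -0.05), and 59 and 38 reads in H460 (-0.54, -1.18 to 0.06). The line in which MMP7 was high thus showed less than a 1.5-fold difference.

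MMP15 had 1420 and 1197 reads in A549, a difference of -0.39 (-0.50 to -0.28), and 1456 and 1432 reads in H460 (0.06, -0.05 to 0.16). In H1299 it had 94 and 68 reads (-0.33, -0.81 to 0.13). MMP24 had 3218 and 2436 reads in A549, a difference of -0.55 (-0.62 to -0.47), just short of the 1.5-fold threshold. Its call in H1299 rested on 38 and 63 reads (0.84, 0.26 to 1.48), in a line where MMP24OS on the other strand had 1563 and 1433, and the difference was 0.16 on the log2(TPM + 1) scale, which is no call. In H460 it had 24 and 34 reads (0.56, -0.21 to 1.40).

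Among the inhibitors, TIMP2 had 6072 and 8854 reads in H1299, a difference of 0.68 (0.63 to 0.72). It had 3364 and 2329 reads in H460 (-0.45, -0.53 to -0.37) and 2688 and 3144 in A549 (0.08, 0.01 to 0.16), so that H460 and H1299 lay on opposite sides of 0. TIMP1 had 11160 and 8207 reads in H460, a difference of -0.36 (-0.40 to -0.32). It had 8636 and 8798 reads in H1299 (0.16, 0.11 to 0.20) and 1500 and 1697 in A549 (0.03, -0.07 to 0.13), and none of its differences reached 1.5-fold. TIMP3 had 37 and 22 reads in H460 (-0.64, -1.50 to 0.13) and 15 and 37 in A549 (1.12, 0.26 to 2.13). In H1299 it had 0 and 17 reads, which was at least 6.21-fold higher against a floor of 3 reads.

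PLAU had 3645 and 1801 reads in H460, a difference of -0.94 (-1.02 to -0.85), or 1.91-fold lower. It had 4446 and 3000 reads in A549, a difference of -0.71 (-0.78 to -0.65), or 1.64-fold lower. In H1299, which held the most PLAU, it had 23145 and 21435 reads and a difference of 0.02 (-0.01 to 0.05). The 6 epithelial markers moved in both directions in A549. KRT7, KRT8 and KRT18 were called lower there (-1.04, -1.16 and -1.23), EPCAM was called higher from 3.61 to 8.04 TPM and KRT19 from 0.888 to 2.23 TPM, and CDH1 was not called (0.51). Their sum, most of it from KRT8 and KRT18, was 5509 and 2454 TPM in the control and the si-MALAT1 library of A549. In H460 that sum was 1246 and 896 TPM and in H1299 481 and 459 TPM, and its part in the result was not tested.

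Over the 3 lines together, no member passed the test of MALAT1 knockdown against control. In edgeR's quasi-likelihood test paired by cell line, the smallest adjusted p among the members was 0.279 for PLAU (log2 fold change -0.56 ± 0.20, SE, unadjusted p = 0.0298). MMP14 had 0.324 (0.80 ± 0.32, unadjusted p = 0.0457), and the others had 0.532 to 0.969. PLAU was lower in 2 of 3 lines and MMP14 higher in 2 of 3. Of 19122 genes tested, 1 was called lower (0.00523%), which was MALAT1 (adjusted p = 0.0381), and 0 were called higher (0%), while 1452 and 1411 genes had an unadjusted p under 0.05 in these directions. DESeq2 called 638 genes lower (4.86% of the 13117 that it gave an adjusted p) and 695 higher (5.3%). It gave an adjusted p for 8 of the 10 members, not for MMP2 and TIMP3, and the smallest were 0.107 for PLAU and 0.119 for MMP14. The mean log2 difference over the lines was 0.22 ± 1.24 (SD, n = 3 lines) for MMP1, 0.10 ± 0.56 for TIMP2 and 0.83 ± 0.92 for MMP14, each with a spread larger than the mean, and -0.54 ± 0.50 for PLAU.

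PLAUR, the receptor of urokinase, was lower in the lines where PLAU was. PLAUR had 5966 and 3172 reads in H460 (-0.83, -0.89 to -0.77) and 999 and 693 in A549 (-0.67, -0.81 to -0.53). In H1299 it had 14606 and 12865 reads (-0.05, -0.09 to -0.02), and there it was also at its highest. Urokinase and its receptor were each called lower in H460 and A549 and not called in H1299, in libraries that the 2 genes share.

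Of the 11 other genes of this system, 9 were read in all 6 libraries. The calls were 4 lower and 0 higher for H460, 1 lower and 3 higher for H1299, and 3 lower and 2 higher for A549, with median differences of -0.40, 0.20 and -0.22. For these and for the lists that follow, the share of all genes called was 10.3% lower and 9.5% higher for H460, 11.4% and 11.7% for H1299, and 11.4% and 11.5% for A549. PLGRKT, a plasminogen receptor, was called lower in all 3 lines (-0.90, -1.48 and -1.26 in H460, H1299 and A549, adjusted p = 0.0734 in edgeR and 2.6e-07 in DESeq2). PLAT, the tissue-type activator, was called in all 3 lines but not in the same direction (-0.68, 0.80 and 0.60). LRP1, an endocytic receptor, was called higher in H1299 and A549 (0.10, 1.12 and 0.62). The most abundant genes of the list were ENO1, ANXA2 and SERPINE2, with means over the 6 libraries of 1465, 730 and 174 TPM. PLG, the gene of plasminogen itself, had 0 reads in all 6.

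The other 17 MMP genes were mostly low or without a read. H460 had no read for 11 of them, H1299 for 4 and A549 for 8, and only MMP11 and MMP17 were read in all 6 libraries. MMP11, known as stromelysin-3, was called higher in H460 (221 and 517 reads) and H1299 (612 and 870 reads) and had 16 and 15 reads in A549. MMP16 was called higher in H1299 (4637 and 6628 reads, 0.65), differed by 0.12 in H460, and had 0 and 9 reads in A549. MMP10 was called higher in H1299 (1.80, 1.48 to 2.16), as its neighbor MMP1 was, and differed by 0.52 (0.19 to 0.86) in H460, where MMP1 was lower.

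Of 5 other inhibitors, 3 were read in all 6 libraries. RECK, a membrane-anchored inhibitor of MMPs, was higher in each line (0.35, 0.64 and 0.83 in H460, H1299 and A549), past 1.5-fold in H1299 and A549, with an adjusted p of 0.150 in edgeR and 0.0135 in DESeq2. TFPI2, which inhibits plasmin and was the most abundant of the list at a mean of 106 TPM, was called lower in H460 and A549 (-1.05 and -0.64) as PLAU was, and differed by 0.32 in H1299. SPOCK1 was called lower in H460 (-0.72). H460 thus had 2 of the 3 called lower, H1299 had 1 called higher, and A549 had 1 called in each direction.

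The 11 genes listed as activators or surface partners of MMPs were all read in every library. ITGAV, the alpha chain of integrins that bind vitronectin, differed by -0.93, -0.57 and -1.41 in H460, H1299 and A549, with an adjusted p of 0.103 in edgeR and 3.5e-05 in DESeq2. H460 and A549 each had 2 genes of this list called lower and 0 higher, and H1299 had 2 higher and 1 lower. The hyaluronan receptor CD44, which binds MMP14 and MMP7 at the cell surface, was called lower in H460 (-0.60). It differed by -0.09 and -0.30 in H1299 and A549. BSG, the inducer of MMPs known as EMMPRIN, was abundant (mean 304 TPM) and was not called in any line. Among 13 ADAM and ADAMTS proteases, of which 12 were read in all 6 libraries, H460 had 1 called higher and 2 lower, H1299 had 5 and 1, and A549 had 2 and 2. ADAM19 was called higher in H1299 and A549 (0.30, 2.27 and 1.54, adjusted p = 0.177 in edgeR and 0.00746 in DESeq2), and ADAM9 lower in both (-0.44, -0.70 and -1.12, 0.118 and 3.6e-04).

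The transcription factors known to act on MMP and PLAU genes included 3 that were called higher in all lines. FOS had 1287 and 9352 reads for H460, 1276 and 6990 for H1299, and 7677 and 18442 for A549, or differences of 2.94, 2.58 and 1.12 (adjusted p = 0.0866 in edgeR and 6.5e-08 in DESeq2). FOSB differed by 2.80, 1.52 and 1.25 (0.0901 and 1.5e-05), and JUN by 1.82, 1.29 and 0.60 (0.109 and 2.4e-04). The other AP-1 subunits did not move in this way. JUNB was called higher in A549 alone (-0.17, 0.14 and 0.73 in H460, H1299 and A549), FOSL1 was called lower in H1299 alone (-0.41, -0.98 and 0.29), and JUND was called in no line (0.17, 0.39 and -0.26), of which FOSL1 and JUND were chosen after their values were seen. FOSL2 was called lower in H460 and A549 and higher in H1299 (-0.79, 0.64 and -0.86), and ETV4, an ETS factor, was called lower in all 3 lines (-0.73, -0.64 and -1.09, 0.0819 and 6.1e-06). Among the 17 factors, H460 had 3 called higher and 2 lower, H1299 had 4 and 3, and A549 had 4 and 2, beside 9.5% and 10.3%, 11.7% and 11.4%, and 11.5% and 11.4% of all genes. No gene of the related lists passed edgeR's paired test. In that test an unadjusted p under 0.05 was found for 2 of 10 members, where 15.0% of all genes had one. Among other genes tested, it was found for 2 of 5 MMP genes, 1 of 4 inhibitors and 3 of 10 plasminogen system genes. It was found for 3 of 11 activators and surface partners of MMPs, 4 of 13 ADAM and ADAMTS proteases and 6 of 17 factors.

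**Figure D5:**
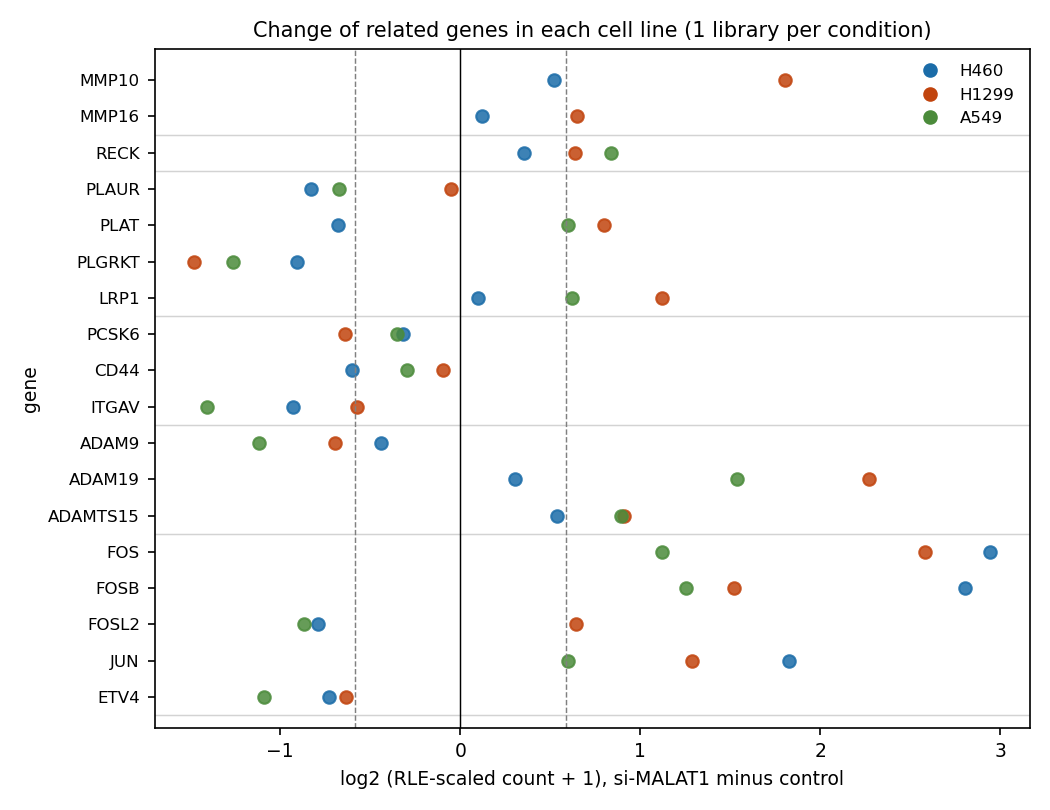
Difference in log2 scaled counts between si-MALAT1 and control in each cell line (color) for the related genes named by the rule, grouped by list with grey lines between lists and dashed lines at a fold change of 1.5. FOS, FOSB and JUN lie to the right in all 3 lines and PLGRKT and ETV4 to the left, and MMP10 and MMP16 have no A549 point because the control had 0 reads.

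The 3' UTRs of the members (GENCODE v44 on GRCh38) were searched for the words TGAATCA and ATGAATC, which were chosen from earlier results of these data on genes lower after the knockdown. Either word occurred in 1 of 10 members, TIMP3, and in 15.9% of 19195 genes. PLAU, the member called lower in H460 and A549, held neither, and nor did PLAUR. The 4 related genes that DESeq2 called lower, PLGRKT, ITGAV, ADAM9 and ETV4, each held at least 1 of the words. Of the 6 that it called higher, 2 did, FOSB and ADAMTS15, but not FOS, JUN, RECK and ADAM19. Both words came from genes lower in these same data, so this contrast was partly fixed in advance and cannot count as evidence. UTR length was not taken into account.

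The members with the widest range over the libraries were MMP14, MMP1 and MMP7, with 6.76, 6.48 and 5.87 on the log2(TPM + 1) scale. The protein-coding genes most like MMP14 over the 6 libraries were WNT9A and C6orf47 (Pearson r = 0.999 and 0.998). Those most like MMP1 were RGMB and RASA3 (both r = 0.997), and those most like MMP7 were SFMBT2 and ANKRD29 (both r = 0.999). With 6 libraries of 3 lines such values are common, since 774, 347 and 492 of 13353 genes had r over 0.95 with MMP14, MMP1 and MMP7. They are given as a description only, because the libraries of a line share the line.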

How the data were processed

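RNA-seq of 6 libraries was analysed. Reads were trimmed by the authors, aligned with HISAT2 2.1.0 and summarized per gene as counts, FPKM and TPM with StringTie (2.1.3b in the methods, 1.3.4b in the submitters' processing notes) on an NCBI annotation of GRCh38, with a stranded kit and no pooling. The deposited counts are whole and not normalized, and the deposited TPM and FPKM were scaled by the authors for length and depth. Counts served for tests, TPM for levels between genes, and FPKM were not used further. Another 18 columns of another study were not used.

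Differences within a line were computed from RLE-scaled counts with a pseudocount of 1. The tests were edgeR 4.0.16 (R 4.3.3, TMM, filterByExpr) with cell line as block, which leaves 2 residual degrees of freedom, and DESeq2 1.42.0 as an alternative. Pairs come from the same cell line, and deviations of the libraries of a line from their group means correlated at 0.941 to 0.961 over 15903 genes. Intervals used scipy 1.17.1. Scripts were tested on simulated data. Named genes were the members, the most changed genes of each list (mean of at least 50 reads, same sign in 3 lines), those called in all lines, the 3 of highest TPM, and overlapping or clustered genes. The members and lists were chosen with earlier results of these data known. Alternatives were other tools, scalings, filters, thresholds and left-out libraries. Some measured genes are not reported here.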

Additional observations from a re-analysis of the deposited data

Results flagged for a closer look

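Members whose difference after si-MALAT1 had opposite directions in 2 lines, with each counting interval on its own side of 0, were MMP1 (H1299 above H460 by 2.16 on the log2 scale), MMP24 (H1299 above A549 by 1.39), TIMP1 (H1299 above H460 by 0.52) and TIMP2 (above H460 by 1.12 in H1299 and by 0.53 in A549). In H1299 MMP1, MMP24 and TIMP2 were also past 1.5-fold.

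Related genes past 1.5-fold in opposite directions, with each counting interval again on its own side of 0, were PLAT (H460 below H1299 and A549, differences of 1.47 and 1.28), ITGB3, an integrin chain chosen after its values were seen (H1299 above A549 by 2.51, with log2 differences of 1.18 and -1.33), and FOSL2 (H1299 above H460 and A549 by 1.43 and 1.51). ADAMTS1, also chosen after its values were seen, was past 1.5-fold in opposite directions too (1.01 in H1299 and -0.80 in A549), but its A549 interval of -2.63 to 0.72 includes 0. In each of these cases 1 library stands for a line and condition, and the difference between the lines was not tested. The intervals cover counting error only.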

How the results depend on the processing

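edgeR's paired test of MALAT1 knockdown called 1 gene, against 1333 by DESeq2, 0 with no filter on low counts, 0 with no replicate block and 0 to 163 when both libraries of a line were left out (163 without H460, 0 without H1299 or A549). No member passed in any of these, but DESeq2 gave no adjusted p for MMP2 and TIMP3. MMP24 (main 0.04) reversed to -0.54 with no replicate block, which changed no call of a member. With a line left out, the ranges that crossed 0 were -0.31 to 0.71 for MMP24, -0.17 to 0.083 for TIMP1, -0.51 to 1.18 for MMP1, -0.53 to 0.82 for MMP2 and -0.19 to 0.37 for TIMP2, and the lowest value of each came without H1299.

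Between lines, leaving out 1 library gave 3563 to 8506 genes for A549 against H460 (main 7303) and 5839 to 11221 for A549 against H1299 (main 9354), lowest without an A549 library. The difference of TIMP3 between A549 and H460 reversed to 0.19 with no treatment term and ran from -1.37 to 1.69 without 1 library. That of MMP24 between H1299 and H460 ran from -0.028 to 1.12.

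Within H460, H1299 and A549, genes past 1.5-fold (main 3523, 4119 and 4087) numbered 1039, 1808 and 1566 on the log2(TPM + 1) scale, 9099, 10763 and 9479 with no filter on zero counts, and 492, 389 and 599 at a log2 threshold of 1.5. At that threshold 0, 1 and 0 members were past it. With no filter on zero counts 2 members were past 1.5-fold in A549, PLAU and TIMP3. TIMP3 was then past it in H460 and H1299 as well, and MMP2 in H1299. The log2(TPM + 1) scale turned the uncalled difference of MMP15 in H460 from 0.06 to -0.07, and no other member changed direction within a line. The cause of these shifts was not tested. Depth limits MMP2, MMP7, MMP24 and TIMP3, which had under 100 reads in at least 4 of 6 libraries.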
